A study of Mus musculus with 24 samples.

Results

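The response of the mouse hippocampus to 1 h of exploring an unfamiliar environment was described over both genotypes together. All 6 libraries of mice taken after novelty were set against all 6 libraries of untreated mice, which makes 12 of the 18 libraries of the series. Libraries were placed in groups by their labels, and the model holds 1 common novelty effect beside a genotype effect. The 4 groups, of 3 libraries each, were untreated wild type, wild type after novelty, untreated Kdm5c KO and Kdm5c KO after novelty. KO mice carry a constitutive null allele of the X-linked gene Kdm5c (Kdm5c-/y, labelled Kdm5c -/-), whose product removes methyl groups from histone H3 at lysine 4. All mice were males aged 2 to 4 months, and the null line was kept on a mixed C57 and 129 background. Mice of the novelty groups spent the hour singly in a Plexiglas box with tubing and toys, and the labels say of the others that they were not treated. Each library pooled hippocampal tissue of 3 mice, so every spread and p-value below is between pools, not between mice. All 12 libraries carry the same flowcell label.

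Neurons that fire in a new place switch on immediate early genes within minutes. These genes need no new protein for their induction, and many encode transcription factors of the FOS, EGR and NR4A families, which in turn act on genes of synapses, growth factor signalling and metabolism. Arousal and exploration also raise circulating glucocorticoids, which act through a receptor in neurons and glia. Chaperones of the endoplasmic reticulum, which fold secreted and membrane proteins, are induced through the unfolded protein response.

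The libraries held between 16 and 45.6 M counts assigned to genes, and 16392 genes passed the filter on low counts. Levels are counts per M counts in genes with TMM normalization factors (CPM), and changes are log2 fold changes, followed by their standard error (SE), with n = 6 libraries a side unless stated. A gene is called where the edgeR quasi-likelihood test gave a Benjamini-Hochberg adjusted p under 0.05 over all tested genes. Libraries differed in how their levels moved with the GC content of genes, with correlations across genes from -0.43 in the wild-type novelty library 2 to 0.58 in the wild-type novelty library 1. The first principal component (25.8% of the variance) had the wild-type novelty library 1 and the KO novelty library 2 at its opposite ends. Summed markers of choroid plexus stood at 1069 CPM in the untreated KO library 2 and at 150.9 to 240.3 CPM in the other 11. The part of these features in the results was not tested.

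Kdm5c itself (chromosome X, 152233020 to 152274535, build GRCm38) was read at similar levels in untreated mice of both genotypes. Kdm5c stood at 75.4, 74.2 and 76.4 CPM in untreated wild type and at 100, 90.2 and 96.0 CPM after novelty. For Kdm5c the KO libraries had 75.8, 76.3 and 75.4 CPM untreated and 78.5, 77.8 and 86.5 CPM after novelty. A count over all exons cannot check a deletion that removes only some of them, so these values test neither label. The pooled change of 0.22 ± 0.05 missed the threshold (edgeR adjusted p = 0.0565), although every novelty library stood above every untreated library. The change was 0.34 ± 0.06 in wild type and 0.09 ± 0.06 in KO.

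With 6 libraries a side 270 genes (1.65% of those tested) were called. Of these, 195 (1.19%) rose and 75 (0.458%) fell. Their changes were small: the median fold was 1.33 for the genes that rose and 1.32 for those that fell, and 20 and 1 of them changed over 2-fold. From 3 against 3 libraries, 57 genes rose (0.348%) and 6 fell (0.0366%) in wild type, and 18 rose (0.11%) and 0 fell in KO. In KO, 493 genes were lower at an unadjusted p under 0.05, and DESeq2 called 9 lower genes. Of the 270 genes, 206 were called in neither genotype alone, 137 of them higher and 69 lower, and 64 were called in wild type or KO. Another 4 genes were called in wild type alone and 1 in KO alone without a pooled call. The pooled and separate fits share their libraries, so the 206 genes are a description of what 6 a side adds.

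These counts moved by over 1.5 times without some single libraries. The 63 calls in wild type became 4 without the wild-type novelty library 3, 5, 15 and 9 when the untreated library 1, 2 or 3 of that genotype was left out, and 102 without the wild-type novelty library 1. The KO libraries enter the same fit, and the calls in wild type became 27 and 101 without the KO novelty libraries 1 and 2, and 30 and 15 without the untreated KO libraries 1 and 3. The 18 calls in KO became 1, 9 and 10 without the KO novelty libraries 1, 2 and 3, and 2, 1 and 1 without the untreated KO libraries 1, 2 and 3. They were 7, 8 and 6 when the untreated library 1, 2 or 3 of wild type was left out. The 206 genes became 134, 105 and 137 without the untreated KO libraries 1, 2 and 3, 123 and 90 when library 1 or 3 of untreated wild type was left out, and 110 and 115 without the wild-type and the KO novelty library 3.

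Direction was the same over nearly all libraries. Each of the 195 higher and 75 lower genes changed in the same direction in wild type and in KO. Those contrasts share no library with each other, but the pooled calls drew on the libraries of both. For 192 of the 195 genes that rose, and for all 75 that fell, each of the 6 novelty libraries lay beyond the mean of the untreated libraries of its own genotype. The 3 exceptions had 5 such libraries, and the exception was the wild-type novelty library 2 for 1 gene and the KO novelty library 2 for the other two. Within both genotypes the novelty libraries lay entirely above the untreated ones for 166 of the 195, against 357 of all tested genes (2.18%). The same held downward for 63 of the 75, against 202 genes (1.23%). All 6 novelty libraries stood above all 6 untreated libraries for 135 of the 195, against 226 genes (1.38%), and below them for 43 of the 75, against 94 (0.573%). A called gene had to differ between the groups, so all these counts and shares, those of direction included, describe the calls and do not support them. The 229 called genes separated within both genotypes became 98 and 129 when library 3 or 1 of untreated wild type was left out, 144 and 146 without the untreated KO libraries 2 and 3, and 127 and 150 without the wild-type and the KO novelty library 3.

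**Figure D1:**
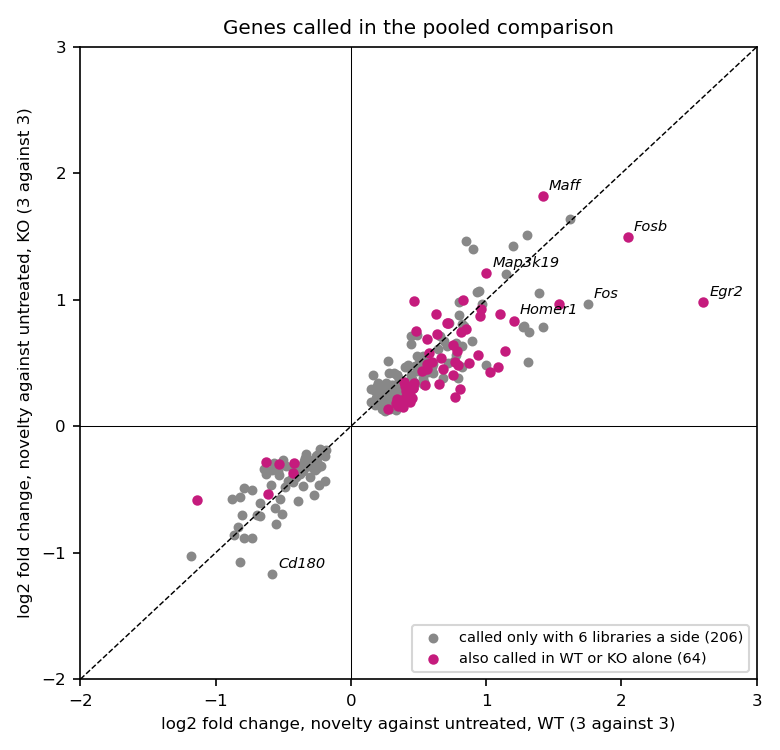
Log2 fold change after novelty in wild type (horizontal axis, 3 against 3 libraries) and in KO (vertical axis, 3 against 3 libraries) for the 270 genes of the pooled comparison, with the line of equal change dashed. All points lie above 0 on both axes or below 0 on both; the 206 grey genes were called in neither genotype alone.

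No gene passed the test of a difference in response between KO and wild type (edgeR, 0 of 16392, smallest adjusted p = 0.9999). At an unadjusted p under 0.05 there were 563 genes, DESeq2 called 0, and edgeR without the low-count filter called 8. The edgeR count stayed at 0 when any 1 library was left out, but not when 2 were left out together. Without both the wild-type novelty library 1 and the KO novelty library 2, genes were called. The change in KO minus that in wild type was positive for 29 of them and negative for 302. The cause of this shift was not tested. The 195 genes that rose had a larger fitted change in wild type in 133 cases, and the 75 that fell in 48. Median absolute log2 changes of the higher genes were 0.45 in wild type and 0.37 in KO. The like share over all tested genes was not counted, so these counts and medians are descriptions and show no difference between genotypes. Among the 270, 10 genes had an unadjusted p under 0.05 for the difference, all with an adjusted p above the threshold. They were 9 of the 195 that rose (4.62%) and 1 of the 75 that fell (1.33%), against 3.43% of all tested genes. Egr2 changed by 2.60 ± 0.36 in wild type and 0.98 ± 0.32 in KO (difference -1.62 ± 0.48), and Dusp6, a phosphatase of ERK, by 0.77 ± 0.11 in wild type and 0.23 ± 0.11 in KO (difference -0.53 ± 0.16).

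Of the gene lists, that of immediate early transcription regulators held the most rises, while 126 of the 195 genes that rose were on no list. Of 32 tested members of the list, 19 rose, 0 fell and 13 were not called, with a median log2 change of 0.67 against -0.0005 over all tested genes. Over all tested genes 1.19% rose and 0.458% fell. This list and those below were written with earlier results of these data known, so their counts and signs are descriptions. Their summed level was 900.2 to 1416 CPM in the untreated libraries and 1685 to 1826 CPM after novelty, without overlap. The novelty libraries of both genotypes lay close together, while the untreated ones were spread. Fosl1 held 21 counts over all 12 libraries and was not tested. Without the untreated wild-type library 3 the list had 10 calls.

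Fosb (chromosome 7, 19302696 to 19310051), which encodes a partner of JUN proteins in the AP-1 factor, had the largest rise of all called genes. Fosb stood at 4.93, 11.0 and 8.52 CPM in untreated wild type and at 32.1, 32.0 and 38.7 CPM after novelty. For Fosb the KO libraries had 14, 6.94 and 12.3 CPM untreated and 35.2, 30.2 and 30.2 CPM after novelty. The groups did not overlap in either genotype, and the untreated KO library 1 was the highest of its kind. Fosb rose by 1.76 ± 0.18 (edgeR adjusted p = 0.000168). Fos (chromosome 12, 85473890 to 85477273), the founding member of the family, ranged from 4.44 to 26.3 CPM untreated and 38.9 to 53.1 CPM after novelty. It rose by 1.34 ± 0.26 (edgeR adjusted p = 0.0156) and was called in neither genotype alone. The lowest value, 4.44 CPM, came from the untreated wild-type library 1.

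Fosl2 (chromosome 5, 32135801 to 32157842), another FOS family member, had a smaller change and the smallest p of the pooled fit. Fosl2 stood at 60.2, 65.9 and 62.7 CPM in untreated wild type and at 126, 112 and 128 CPM after novelty. For Fosl2 the KO libraries had 66.3, 52.3 and 57.8 CPM untreated and 104, 111 and 109 CPM after novelty. The groups were far apart, and libraries within each group differed little. Fosl2 rose by 0.91 ± 0.06 (edgeR adjusted p = 3.59e-06), and the change was 0.95 ± 0.09 in wild type and 0.87 ± 0.09 in KO. Junb rose by 0.74 ± 0.17 (edgeR adjusted p = 0.0491) and kept its call in 1 of 12 fits that each left out 1 library.

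The 4 EGR zinc finger factors all rose. Egr2 stood at 0.987, 5.07 and 3.40 CPM in untreated wild type and at 19.9, 18.5 and 21.7 CPM after novelty. For Egr2 the KO libraries had 12.2, 4.76 and 10.1 CPM untreated and 19.4, 17.2 and 18.1 CPM after novelty. Egr2 (chromosome 10, 67535475 to 67542188) was low and uneven in untreated mice and even after novelty, when all 6 libraries exceeded the 6 untreated ones. It rose by 1.68 ± 0.31 (edgeR adjusted p = 0.0129); without the untreated wild-type library 3 its adjusted p was 0.0618. Egr4 (chromosome 6, 85511121 to 85513589) rose by 1.02 ± 0.22 (edgeR adjusted p = 0.037) and was called in 2 of the 12 fits, with adjusted p up to 0.107, when 1 library was left out. Egr1 rose by 0.86 ± 0.15 (edgeR adjusted p = 0.0107) from 128 ± 42.1 to 229 ± 8.09 CPM (SD over 6 libraries), and Egr3 by 0.69 ± 0.09 (edgeR adjusted p = 0.00169).

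Orphan nuclear receptors of the NR4A family rose together. Nr4a3 rose by 0.75 ± 0.10 (edgeR adjusted p = 0.00122), Nr4a1 by 0.73 ± 0.16 (adjusted p = 0.0345) and Nr4a2 by 0.68 ± 0.08 (adjusted p = 0.000782). Only Nr4a2 of these 3 was called in both genotypes alone. Large changes from low levels were seen in 2 further factors. Maff (chromosome 15, 79346621 to 79359076), a small MAF factor, ranged from 0.42 to 0.863 CPM untreated and 1.35 to 3.15 CPM after novelty and rose by 1.64 ± 0.23 (edgeR adjusted p = 0.00201). Atf3 (chromosome 1, 191170296 to 191218039), a stress-responsive bZIP factor, ranged from 0.555 to 1.74 CPM untreated and 2.36 to 3.42 CPM after novelty and rose by 1.41 ± 0.24 (edgeR adjusted p = 0.00771). Npas4, a factor specific to neuronal activity, rose by 0.90 ± 0.21 (edgeR adjusted p = 0.0442) with overlapping libraries. Klf4, Per1, Bhlhe40, Nfil3 and Srf completed the called members. Klf2 (0.66 ± 0.20), Csrnp1 (0.40 ± 0.11), Crem (0.38 ± 0.10) and Jun (0.26 ± 0.09) missed the threshold, and Ier2, Jund and Klf6 had changes between 0.03 and 0.04.

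**Figure D2:**
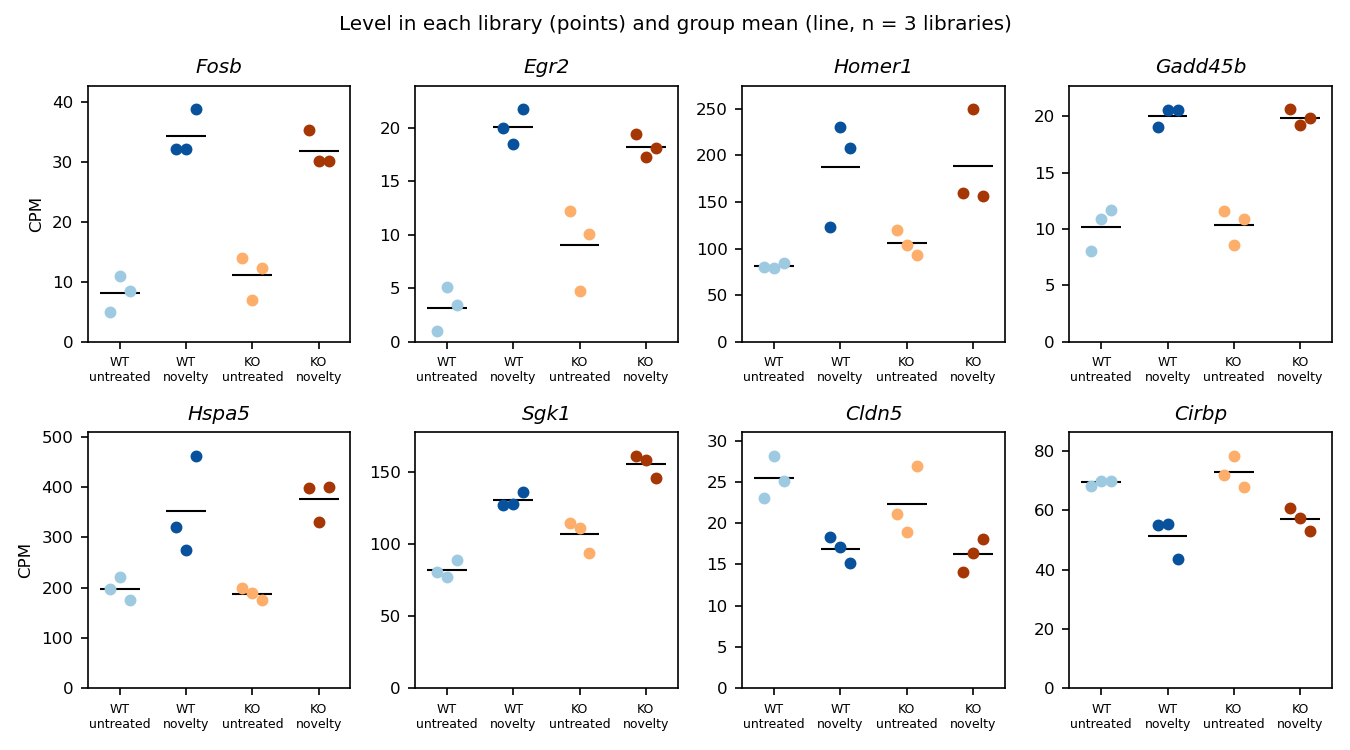
Level in CPM (vertical axis, from 0) of 8 named genes in each of the 12 libraries, with the mean of each group of 3 as a line. Fosb, Egr2, Homer1, Gadd45b, Hspa5 and Sgk1 are higher and Cldn5 and Cirbp lower in the novelty libraries of both genotypes.

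Of 31 tested effector genes regulated by activity 14 were higher, 0 lower and 17 not called (median log2 change 0.45), against 1.19% of all tested genes higher. Gadd45b (chromosome 10, 80930073 to 80932204), which acts in DNA demethylation and stress signalling, was even after novelty. Gadd45b stood at 8.08, 10.9 and 11.7 CPM in untreated wild type and at 19.1, 20.6 and 20.5 CPM after novelty. For Gadd45b the KO libraries had 11.6, 8.55 and 10.9 CPM untreated and 20.6, 19.2 and 19.8 CPM after novelty. The 6 novelty libraries lay close together in both genotypes and above all untreated ones. Gadd45b rose by 0.95 ± 0.09 (edgeR adjusted p = 0.000135). Homer1 (chromosome 13, 93299635 to 93405129), a scaffold of postsynaptic glutamate receptors with a short form induced by activity, varied more. Homer1 stood at 80.6, 78.6 and 84.4 CPM in untreated wild type and at 123, 230.1 and 208 CPM after novelty. For Homer1 the KO libraries had 119.9, 104 and 92.6 CPM untreated and 159, 249 and 157 CPM after novelty. The lowest novelty value was in the wild-type library 1, yet it exceeded all untreated values. Homer1 rose by 1.02 ± 0.15 (edgeR adjusted p = 0.00309).

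Nptx2, a pentraxin that clusters AMPA receptors, rose by 0.63 ± 0.07 (edgeR adjusted p = 0.000286) and was called in each genotype alone. Amigo3, an adhesion protein, rose by 0.79 ± 0.18 (edgeR adjusted p = 0.039), and Ccn1, a secreted matrix protein, by 0.81 ± 0.19 (adjusted p = 0.0475). Amigo3 lies inside Rnf123 on the opposite strand, and the 2 genes were called in 2 and 3 of the 12 fits that left out a library. Arc, a regulator of AMPA receptor traffic, ranged from 73.1 to 307 CPM untreated and 292 to 407 CPM after novelty. Its change of 0.95 ± 0.24 missed the threshold (edgeR adjusted p = 0.058), and its untreated and novelty libraries overlapped. Bdnf, the neurotrophin, changed by 0.31 ± 0.08 (adjusted p = 0.065). Without the wild-type novelty library 3 the list had 9 calls.

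Genes that feed back on MAP kinases were called in 6 of 15 cases, all higher (median log2 change 0.20), against 1.19% of all tested genes. Errfi1 (chromosome 4, 150853919 to 150868892), an inhibitor of the EGF receptor, ranged from 40.7 to 52.3 CPM untreated and 65.4 to 72.4 CPM after novelty and rose by 0.55 ± 0.05 (edgeR adjusted p = 0.000117). Dusp5 (chromosome 19, 53529109 to 53542431), a nuclear phosphatase of ERK, ranged from 14.9 to 27.2 CPM untreated and 29.1 to 37.5 CPM after novelty and rose by 0.63 ± 0.10 (edgeR adjusted p = 0.00317). Dusp6, Dusp4, Spry4 and Spred2 rose as well, by 0.20 to 0.50. Dusp1 (0.54 ± 0.16) was not called. The list fell to 3 calls without any 1 of 7 libraries, which were the 3 untreated wild-type libraries, the wild-type novelty library 3, the untreated KO libraries 2 and 3 and the KO novelty library 3.

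Promoter sequences of RefSeq (build GRCm38.p6, 250 bases before to 50 bases after each start) were found for 154 of the 195 genes that rose and for 11972 of the tested symbols. They were searched on both strands for motifs of factors that act in activity-regulated transcription. The CArG box (CC, then 6 bases of A or T, then GG), bound by SRF, was in the windows of 6 of the 154 genes (3.90%) and in 1.58% of all matched genes. The CRE (TGACGTCA), bound by CREB, was in 7 (4.55%) against 3.43%, and the EGR site (GCGNGGGCG) in 30 (19.5%) against 12%. The AP-1 site (TGANTCA) was in 4.55% against 6.24%, the E-box (CACGTG) in 16.9% against 11.3%, and the paired half-sites ACANNNTGT of the glucocorticoid receptor in 4.55% against 5.46%. Of the 57 matched genes that fell, 5.26% held the EGR site, 1.75% the CRE and 1.75% the CArG box. The EGR site is made almost wholly of G and C. The longest transcripts had a median GC content of 51.9% for genes that rose, 48.5% for those that fell and 49.6% for all tested genes. The part of base composition in the motif shares was not tested. These shares are descriptions without a test, and a match is not a shown binding site. Stretches of 100 bases around a CArG box (capitals) are printed for Egr2 at chr10:67537752-67537851 (+ strand), Dusp5 at chr19:53529018-53529117 (+ strand) and Srf at chr17:46556190-46556289 (- strand), and around a CRE (capitals) for Maff at chr15:79347445-79347544 (+ strand) and Errfi1 at chr4:150854973-150855072 (+ strand), to show the 2 motifs in genes that rose. These genes, and those of the element further on, were chosen after the matches were seen and not in order of fold change. Dusp5 and Srf hold a further CArG box, left in lower case.
Egr2: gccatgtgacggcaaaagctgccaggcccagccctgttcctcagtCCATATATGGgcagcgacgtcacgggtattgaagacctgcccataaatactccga
Dusp5: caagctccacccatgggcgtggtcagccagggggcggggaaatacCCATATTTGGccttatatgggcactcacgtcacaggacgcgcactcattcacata
Srf: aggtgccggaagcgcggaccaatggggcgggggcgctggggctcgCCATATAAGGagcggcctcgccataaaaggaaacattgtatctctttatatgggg
Maff: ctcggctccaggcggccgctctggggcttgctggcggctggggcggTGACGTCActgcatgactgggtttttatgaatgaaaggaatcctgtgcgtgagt
Errfi1: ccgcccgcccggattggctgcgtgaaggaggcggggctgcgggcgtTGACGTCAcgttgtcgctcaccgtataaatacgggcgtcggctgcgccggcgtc

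Of 25 tested genes of chaperones and stress factors of the endoplasmic reticulum 12 rose, 0 fell and 13 were not called (median log2 change 0.24). Of all tested genes 1.19% rose. From 3 against 3 libraries 2 members were called in wild type and 2 in KO. Hspa5 (chromosome 2, 34771970 to 34777547), the chaperone BiP that binds unfolded proteins and restrains the stress sensors, had the smallest p of the list. Hspa5 stood at 198, 221 and 175 CPM in untreated wild type and at 321, 275 and 462 CPM after novelty. For Hspa5 the KO libraries had 199, 188 and 176 CPM untreated and 397, 330.4 and 401 CPM after novelty. Every novelty library stood above every untreated one, with the wild-type novelty library 2 lowest. Hspa5 rose by 0.92 ± 0.11 (edgeR adjusted p = 0.000637), by 0.83 ± 0.15 in wild type and 1.00 ± 0.15 in KO. Its values in the wild-type novelty libraries were the most spread of the 4 groups.

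Sdf2l1 (chromosome 16, 17130138 to 17132383), a cofactor of BiP, ranged from 4.26 to 5.56 CPM untreated and 6.95 to 13.1 CPM after novelty and rose by 1.00 ± 0.14 (edgeR adjusted p = 0.00211). Pdia4, a disulfide isomerase, rose by 0.78 ± 0.11 (edgeR adjusted p = 0.00169), from 32.6 ± 1.07 to 56.0 ± 11.2 CPM. Xbp1, whose spliced form is a factor of the unfolded protein response, rose by 0.63 ± 0.08 (edgeR adjusted p = 0.000956). Manf (chromosome 9, 106838312 to 106891979), a secreted protein retained in the reticulum, rose by 0.62 ± 0.09 (edgeR adjusted p = 0.00201); its span overlaps Dcaf1 and Rbm15b, neither called. Sdf2l1 and Manf were called in neither genotype alone, and both kept the call in all 12 fits that left out a library. Creld2, Pdia6, Herpud1, Calr, Hyou1, Atf4 and Dnajb11 rose by 0.23 to 0.54.

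Other members showed no call. Ddit3, the proapoptotic factor CHOP, changed by 0.24 ± 0.08 (edgeR adjusted p = 0.155), Hsp90b1 by 0.24 ± 0.08 and Canx by 0.03 ± 0.05. Trib3 (-0.65 ± 0.31) and Chac1 (-0.06 ± 0.10), targets of ATF4 and CHOP, had negative values that missed the threshold. The list had 7 calls without the untreated KO library 2, the wild-type novelty library 3 or the untreated wild-type library 3.

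The ER stress element (CCAAT, 9 bases, CCACG), bound by ATF6 with the CCAAT factor NF-Y, was found in the windows of 4 of the 154 matched genes that rose (2.60%) and in 20 of 11972 matched genes (0.167%). All 4 belong to the list, of whose 22 matched members 8 carry the element. The other members with it, Canx, Dnajc3, Hsp90b1 and Syvn1, were not called. The 4 stretches that match, with the element in capitals on either strand, are printed to show where it lies in genes that rose: Hspa5 at chr2:34771984-34772083 (+ strand), Pdia6 at chr12:17266450-17266549 (+ strand), Calr at chr8:84847035-84847134 (- strand) and Creld2 at chr15:88819479-88819578 (+ strand). The elements begin 65, 98, 162 and 126 bases before the start.
Hspa5: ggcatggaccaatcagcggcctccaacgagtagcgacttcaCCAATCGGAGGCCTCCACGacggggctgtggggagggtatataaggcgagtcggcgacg
Pdia6: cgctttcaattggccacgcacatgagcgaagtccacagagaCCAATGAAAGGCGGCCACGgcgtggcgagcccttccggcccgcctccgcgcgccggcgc
Calr: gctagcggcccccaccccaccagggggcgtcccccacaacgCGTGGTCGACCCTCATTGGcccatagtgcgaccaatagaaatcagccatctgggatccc
Creld2: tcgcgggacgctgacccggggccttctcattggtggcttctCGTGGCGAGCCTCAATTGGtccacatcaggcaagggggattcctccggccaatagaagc
In Hspa5 and Pdia6 the element reads forward, and in Calr and Creld2 it lies on the other strand.

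Heat shock genes of the cytosol rose in 8 of 22 cases, against 1.19% of all tested genes, and 0 fell. All 22 had positive values (median log2 change 0.20). Dnajb1 (chromosome 8, 83608193 to 83612653), a cochaperone of HSP70, had the smallest p of the list. Dnajb1 stood at 39.9, 47.7 and 39.0 CPM in untreated wild type and at 81.6, 57.4 and 89.3 CPM after novelty. For Dnajb1 the KO libraries had 44.0, 38.4 and 42.7 CPM untreated and 73.9, 67.5 and 71.5 CPM after novelty. All untreated libraries lay below every novelty library, of which the wild-type library 2 was the lowest. Dnajb1 rose by 0.81 ± 0.09 (edgeR adjusted p = 0.000532). The inducible HSP70 genes Hspa1b and Hspa1a rose by 1.07 ± 0.20 (edgeR adjusted p = 0.0153) and 1.02 ± 0.19 (edgeR adjusted p = 0.0156). The 2 are near-identical neighbours on chromosome 17, so reads could be split between them or lost, and each was called in 10 of the 12 fits that left out a library. Hspb1 rose by 1.01 ± 0.20 (edgeR adjusted p = 0.0218) from a mean of 0.772 CPM, and Hsph1 by 0.36 ± 0.05 (adjusted p = 0.00314). Hspa8, Stip1 and Fkbp4 rose by 0.24 to 0.30, while Hsp90aa1 (0.01 ± 0.09) and Hspe1 (0.03 ± 0.06) were not called. A heat shock element (GAA, TTC and GAA, each 2 bases apart, on either strand) was in the promoter window of 1 of the 154 matched genes that rose, Hsph1 (0.649%), and of 0.568% of all matched genes. The count depended on single libraries: it was 2 without the untreated wild-type library 1 or 3, 4 without the untreated KO library 1 or 2 or the wild-type novelty library 3, and 5 without the untreated KO library 3 or the KO novelty library 1 or 3.

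Targets of the glucocorticoid receptor rose in 9 of 21 cases, against 1.19% of all tested genes, and 0 fell. All 21 values were positive (median log2 change 0.31), in a list written with earlier results known. Tsc22d3 (chromosome X, 140539528 to 140600659), the leucine zipper GILZ, is among the most direct of them. Tsc22d3 stood at 63.4, 61.2 and 55.4 CPM in untreated wild type and at 111, 83.5 and 101 CPM after novelty. For Tsc22d3 the KO libraries had 74.3, 72.2 and 61.9 CPM untreated and 134, 114 and 119 CPM after novelty. Novelty libraries of both genotypes lay above all untreated ones, and Tsc22d3 rose by 0.77 ± 0.07 (edgeR adjusted p = 0.000135). Sgk1 (chromosome 10, 21882184 to 21999903), a kinase that regulates ion channels, had 77.3 to 115 CPM untreated and 127 to 161 CPM after novelty and rose by 0.60 ± 0.06 (edgeR adjusted p = 0.000135). Its level was also higher in KO than in wild type in the same fit (genotype effect 0.31, edgeR adjusted p = 0.00559), and the untreated KO libraries lay between the untreated and the novelty libraries of wild type.

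Cdkn1a (chromosome 17, 29090976 to 29100727), the cell cycle inhibitor p21, rose by 0.77 ± 0.07 (edgeR adjusted p = 0.000135) in a like manner, 0.71 ± 0.11 in wild type and 0.82 ± 0.11 in KO. Pdk4 (chromosome 6, 5483351 to 5496309), which restrains the entry of pyruvate into the citric acid cycle, rose by 0.62 ± 0.09 (edgeR adjusted p = 0.00267). Fkbp5, the cochaperone that damps the receptor, rose by 0.25 ± 0.05 (edgeR adjusted p = 0.0304), from 77.2 ± 4.77 to 92.1 ± 5.18 CPM. Nfkbia and Ddit4 rose by 0.32 and 0.31, while Zbtb16 (0.22 ± 0.07), Klf9 (0.10 ± 0.07) and the metallothionein genes Mt1 (0.06 ± 0.06) and Mt2 (0.12 ± 0.07) were not called. Per1, Cdkn1a and Errfi1 also stand on other lists. Without the untreated wild-type library 3 the list had 5 calls.

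Of 21 clock genes 5 rose and 0 fell (median log2 change 0.07), against 1.19% and 0.458% of all tested genes. They were the repressors Per1, Per2 and Cry1 and the regulators Bhlhe40 and Nfil3. Per2 (chromosome 1, 91415982 to 91459324) ranged from 47.8 to 65.2 CPM untreated and 73.1 to 91.4 CPM after novelty and rose by 0.57 ± 0.07 (edgeR adjusted p = 0.000956). Per1 ranged from 82.9 to 132 CPM untreated and 133 to 166 CPM after novelty and rose by 0.49 ± 0.09 (edgeR adjusted p = 0.0113). Nfil3 rose by 0.81 ± 0.12 (edgeR adjusted p = 0.00227) and Cry1 by 0.28 ± 0.07 (adjusted p = 0.044), which was called in 1 of the 12 fits that left out a library. Dbp (-0.10 ± 0.10), Nr1d1 (-0.05 ± 0.06) and Arntl (-0.04 ± 0.06), whose levels swing with the time of day, had no call. Without the untreated wild-type library 3 the list had 2 calls.

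Other genes were found with 6 libraries a side and in neither genotype alone, and those of smallest p are given here. Dio2 (chromosome 12, 90724552 to 90738438), the deiodinase that makes active thyroid hormone in glia, showed 1 deviating library. Dio2 stood at 70.7, 63.6 and 57.8 CPM in untreated wild type and at 74.1, 118 and 142 CPM after novelty. For Dio2 the KO libraries had 81.0, 79.1 and 80.3 CPM untreated and 153, 147 and 143 CPM after novelty. The wild-type novelty library 1 lay within the untreated range, and the other 5 novelty libraries lay above it. Dio2 rose by 0.84 ± 0.11 (edgeR adjusted p = 0.0016). Ppp1r3c, which targets a phosphatase to glycogen, rose by 0.52 ± 0.07 (edgeR adjusted p = 0.0016), and Coq10b, a protein of coenzyme Q transport, by 0.54 ± 0.07 (adjusted p = 0.00134). Coq10b had an even novelty group, moving from 15.1 ± 1.73 to 22.1 ± 0.452 CPM (SD, n = 6).

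Mfsd2a, a transporter of lysophosphatidylcholine carrying omega-3 fatty acids, rose by 0.53 ± 0.08 (edgeR adjusted p = 0.00238), and Sik2, a kinase that holds CREB coactivators in the cytoplasm, by 0.45 ± 0.06 (adjusted p = 0.0016). Cyp51, a demethylase of sterol synthesis, rose by 0.27 ± 0.05 (edgeR adjusted p = 0.0102) and was called in 11 of the 12 fits, with adjusted p up to 0.0524, when 1 library was left out.

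The remaining large rises belonged to no list. Map3k19 (chromosome 1, 127815253 to 127855031), a MAP kinase kinase kinase, was even in both genotypes. Map3k19 stood at 3.64, 4.89 and 4.37 CPM in untreated wild type and at 7.45, 8.66 and 9.96 CPM after novelty. For Map3k19 the KO libraries had 4.94, 3.28 and 4.19 CPM untreated and 9.50, 10.3 and 9.53 CPM after novelty. No untreated library reached a novelty one, and Map3k19 rose by 1.11 ± 0.11 (edgeR adjusted p = 0.000158), 1.00 ± 0.16 in wild type and 1.21 ± 0.15 in KO. Gem (chromosome 4, 11704457 to 11714752), a small GTPase that inhibits calcium channels, rose by 1.18 ± 0.16 (edgeR adjusted p = 0.00176). Depp1, a target of FOXO factors, rose by 1.19 ± 0.27 (edgeR adjusted p = 0.0396), Rtp1, a chaperone of odorant receptors, by 1.16 ± 0.26 (edgeR adjusted p = 0.0366), and Noxred1 by 1.01 ± 0.23 (edgeR adjusted p = 0.041). Those 3 had means of 2.02 to 2.58 CPM after novelty and were called in 3, 3 and 1 of the 12 fits that left out a library, and Depp1 lies inside Rassf4 on the opposite strand. Gm15344 (chromosome 10, 86692119 to 86693095), a processed transcript, rose by 1.23 ± 0.16 (edgeR adjusted p = 0.00122), but it lies wholly inside the chaperone gene Hsp90b1 on the same strand, so its reads cannot be told from those of that gene.

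**Figure D3:**
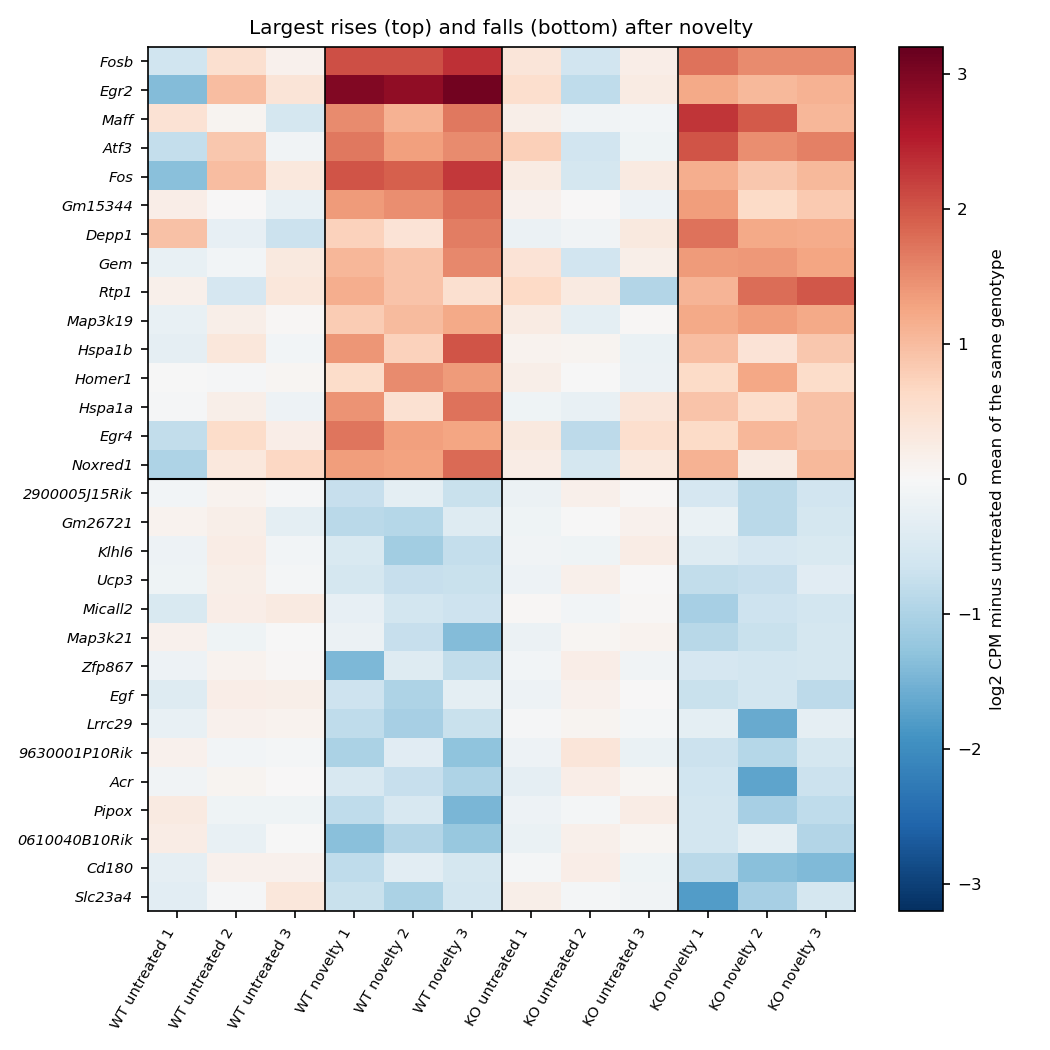
Log2 CPM of the 15 largest rises (upper block) and 15 largest falls (lower block) among called genes with a mean of at least 1 CPM, in each of the 12 libraries, minus the mean of the 3 untreated libraries of the same genotype. Red is higher and blue lower; the novelty columns of both genotypes are red above and blue below, and the untreated columns are mixed.

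Falls were fewer and at lower levels. The median untreated level was 12.3 CPM for the 75 genes that fell, 32.6 CPM for the 195 that rose and 18.8 CPM for all tested genes. By the test against a 1.2-fold change 32 genes rose and 0 fell. Only 3 of the 75 were on a list. Of the 195 that rose, 69 were on a list and 126 (64.6%) on none. Of the 75, 63 (84%) were protein coding, against 88.2% of all tested genes and 96.9% of those that rose.

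Cirbp (chromosome 10, 80165985 to 80172786), an RNA-binding protein induced by mild cold, separated the 2 conditions fully. Cirbp stood at 68.3, 70.0 and 70.0 CPM in untreated wild type and at 55.2, 55.4 and 43.7 CPM after novelty. For Cirbp the KO libraries had 72.1, 78.5 and 68.0 CPM untreated and 60.8, 57.4 and 53.1 CPM after novelty. The novelty values were lower in both genotypes, and the wild-type novelty library 3 was the lowest. Cirbp fell by 0.39 ± 0.06 (edgeR adjusted p = 0.00596). Slc6a6 (chromosome 6, 91684053 to 91759066), the taurine transporter, fell by 0.24 ± 0.04 (edgeR adjusted p = 0.00733), from 213 ± 4.20 to 179.9 ± 8.25 CPM. Slc40a1, the iron exporter ferroportin, fell by 0.32 ± 0.06 (edgeR adjusted p = 0.0113), and Fbxo32, a ubiquitin ligase subunit known from muscle atrophy, by 0.38 ± 0.07 (adjusted p = 0.0118). The zinc finger genes Zfp46 and Zkscan2 fell by 0.41 ± 0.06 (edgeR adjusted p = 0.0038) and 0.49 ± 0.09 (edgeR adjusted p = 0.0102). In Zkscan2 the wild-type novelty library 2, at 63.5 CPM, lay among the untreated ones. All 6 were called in neither genotype alone and in all 12 fits that left out a library.

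The largest falls in log2 terms were at low levels, with 0.388 to 9.29 CPM over all libraries. Slc23a4 (chromosome 6, 34945278 to 34988404), of the family of nucleobase and ascorbate transporters, ranged from 0.617 to 1.60 CPM untreated and 0.388 to 0.953 CPM after novelty and fell by 0.97 ± 0.21 (edgeR adjusted p = 0.0347), with a call in 3 of 12 fits that left out a library. Cd180 (chromosome 13, 102693558 to 102739629), a Toll-like receptor homologue of B cells and microglia, ranged from 1.60 to 3.42 CPM untreated and 1.1 to 1.62 CPM after novelty and fell by 0.88 ± 0.16 (edgeR adjusted p = 0.0123). Pipox, a peroxisomal oxidase of pipecolic acid, fell by 0.82 ± 0.16 (edgeR adjusted p = 0.0157), Ucp3, a mitochondrial carrier, by 0.64 ± 0.12 (edgeR adjusted p = 0.0141), and the processed transcript 2900005J15Rik by 0.61 ± 0.10 (edgeR adjusted p = 0.00596). Cd180 overlaps Mast4 on the opposite strand over 15.5% of its span, and Mast4 had a mean of 94.0 CPM untreated and was not called. Cd180, Pipox, Ucp3 and 2900005J15Rik were called in all 12 fits that left out a library. Egf, the growth factor, fell by 0.70 ± 0.15 (edgeR adjusted p = 0.0294) and was called in 6 of them, and Acr, the acrosomal protease, by 0.81 ± 0.17 (edgeR adjusted p = 0.0259) and in 7.

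Micall2, Map3k21, Klhl6, Lrrc29 and Gm26721 fell by 0.62 to 0.74 and were each called in 1 to 3 of the 12 fits. Zfp867 fell by 0.69 ± 0.14 (edgeR adjusted p = 0.0222) and was called in 8 of them. The antisense transcripts 0610040B10Rik and 9630001P10Rik fell by 0.87 ± 0.16 and 0.76 ± 0.17, in 11 and 3 fits. Their spans overlap Zdhhc4 and Fam184b on the opposite strand by 0.3% and 13.5%, and the labels leave the strand setting of the counting unstated, so reads from those stretches cannot be assigned. 3000002C10Rik, a transcribed pseudogene, fell by 0.55 ± 0.10 (edgeR adjusted p = 0.0113).

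Markers of hippocampal neurons were present in every library. Summed markers of dentate granule cells ranged from 585 to 852 CPM, of CA1 pyramidal cells from 780 to 942 CPM and of CA2 and CA3 pyramidal cells from 301 to 359 CPM over the 12 libraries. None of the 28 tested markers of these 3 lists was called. Among 13 markers of endothelial and mural cells 2 fell, 0 rose and 12 had negative values (median log2 change -0.18). Their summed level was 336 to 467 CPM untreated and 338 to 402 CPM after novelty, with overlap. Cldn5 (chromosome 16, 18776847 to 18778262), the tight junction protein of the blood-brain barrier, was one of them. Cldn5 stood at 23.0, 28.2 and 25.1 CPM in untreated wild type and at 18.3, 17.2 and 15.2 CPM after novelty. For Cldn5 the KO libraries had 21.1, 18.9 and 27.0 CPM untreated and 14.1, 16.4 and 18.1 CPM after novelty. All novelty libraries were below all untreated ones, though the lowest untreated value, 18.9 CPM, came close. Cldn5 fell by 0.53 ± 0.09 (edgeR adjusted p = 0.0099), and Pdgfrb, the receptor of pericytes, by 0.29 ± 0.07 (edgeR adjusted p = 0.0396), with a call in 4 of the 12 fits that left out a library. In bulk tissue fewer cells of a type and less RNA per cell cannot be told apart.

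Of 12 microglial markers Siglech alone was called. It fell by 0.31 ± 0.07 (edgeR adjusted p = 0.0414), was higher in KO (genotype effect 0.56, adjusted p = 0.000182) and was called in 2 of the 12 fits that left out a library, while Cx3cr1 (-0.16 ± 0.05), P2ry12 (-0.23 ± 0.08) and Csf1r (-0.03 ± 0.07) were not called. Choroid plexus markers had a median log2 change of -0.85 with 0 of 10 called. Ttr, one of them, stood at 544 CPM in the untreated KO library 2 and at 5.47 to 38.3 CPM in the other 11. Without that library 105 genes rose and 42 fell in the pooled comparison, and 103 and 36 of these were among the 195 and 75. None of the tested markers of inhibitory neurons (12), astrocytes (12), oligodendrocyte lineage (13, all with negative values, median log2 change -0.09), meningeal fibroblasts (10), thalamus, striatum and habenula (11) or blood cells (6) was called. None of 36 glutamate and GABA receptor subunits or 9 mitochondrially encoded genes was called either.

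Of 22 neuropeptide precursor genes 0 were called in the pooled comparison. Their summed level in KO was 1399 to 1524 CPM untreated and 1629.8 to 1704 CPM after novelty, without overlap, and in wild type 1405 to 1500.3 CPM and 1440.0 to 1576 CPM, with overlap. Adcyap1, the precursor of PACAP, was called in KO alone (0.87 ± 0.14, edgeR adjusted p = 0.0329, n = 3 a side); its change in wild type was -0.03 ± 0.14, and the difference of 0.90 ± 0.19 did not pass the test. Adcyap1 stood at 5.12, 4.98 and 5.38 CPM in untreated wild type and at 5.27, 4.52 and 5.45 CPM after novelty. For Adcyap1 the KO libraries had 3.85, 3.28 and 3.48 CPM untreated and 6.98, 7.26 and 5.37 CPM after novelty. The KO libraries did not overlap, and those of wild type did.

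**Figure D4:**
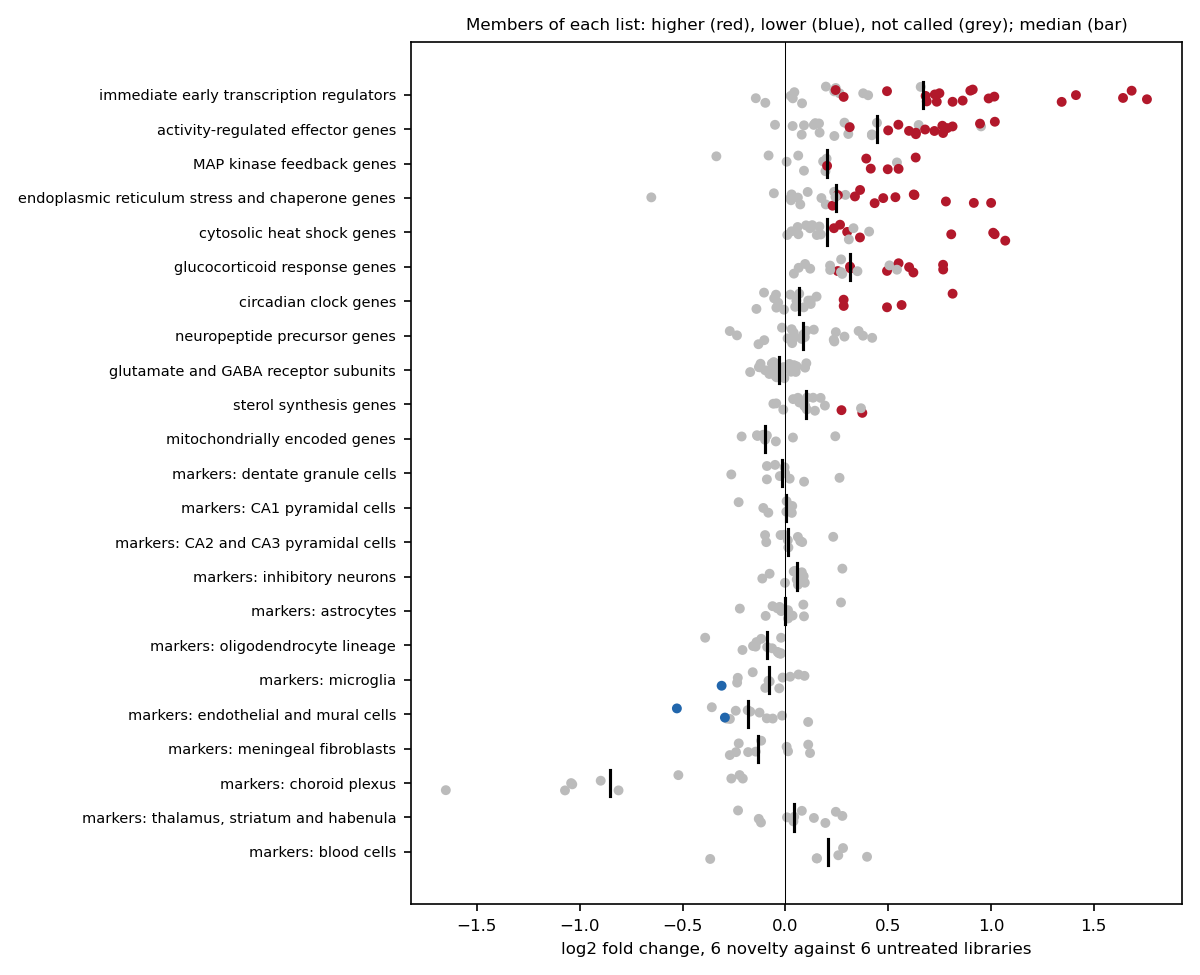
Pooled log2 fold change (horizontal axis, 6 novelty against 6 untreated libraries) of every tested member of 23 gene lists, with genes called higher in red, lower in blue and not called in grey, and the median of each list as a bar. Immediate early regulators reach furthest to the right (Fosb, 1.76), receptor subunits lie near 0, and the choroid plexus markers lie to the left with no call.

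Stability against single libraries was uneven. Of the 270 genes, 94 were called in every one of the 12 fits that left out 1 library, 76 of them higher and 18 lower. Of the 206 found only with 6 a side, 44 were. The total ranged from 100, without the untreated wild-type library 3, to 314, without the wild-type novelty library 2. It was 132 and 164 without the untreated wild-type libraries 1 and 2, and 130 without the wild-type novelty library 3. Leaving out an untreated KO library gave 164, 147 and 151 calls (libraries 1, 2 and 3), and leaving out the KO novelty library 1 or 3 gave 170 or 153. It was 256 and 273 without the wild-type novelty library 1 and the KO novelty library 2, the 2 libraries at the ends of the first component.

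**Figure D5:**
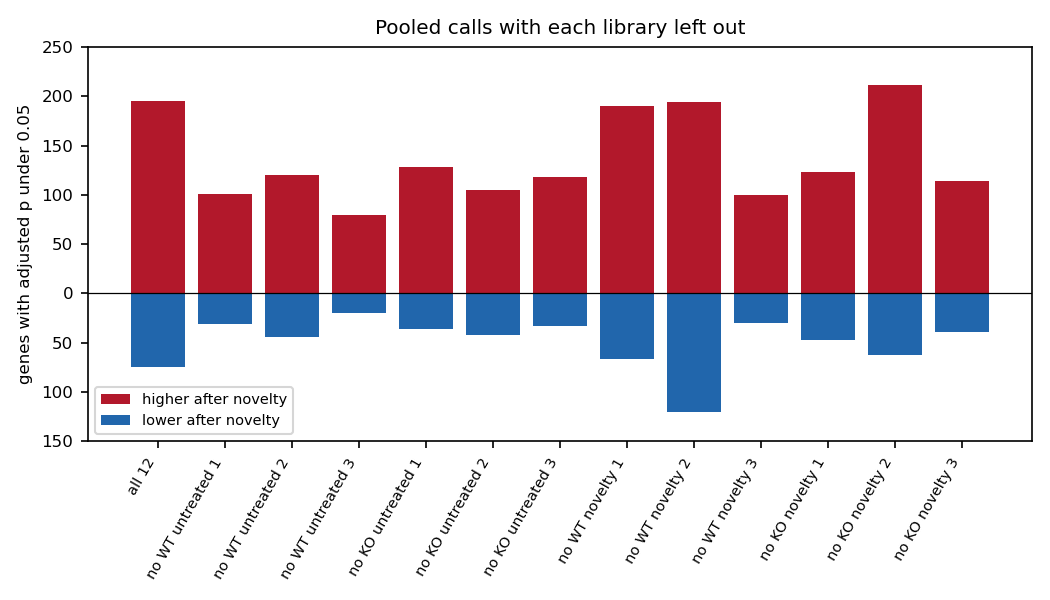
Number of genes called higher (red, upward) and lower (blue, downward) after novelty with all 12 libraries and with each library left out in turn. The total is 270 with all 12, lowest at 100 without the untreated wild-type library 3 and highest at 314 without the wild-type novelty library 2.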

How the data were processed

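The authors sequenced stranded single-end libraries of 50 nt reads, per the labels' protocols, and deposited gene counts for each library. STAR 2.5.0c, SAMtools 1.3, HTSeq 0.6.1, DESeq2 and the build GRCm38 (mm10) are named in the submitters' processing notes; no source used here gives the annotation release or the strand setting of the counting. The extraction protocol speaks of hippocampal cultures, while the labels give hippocampal tissue. Rows without a gene (no feature, 14.7 to 17.2% of gene, ambiguous and no-feature counts together) were left out, and 46574 of 47069 gene identifiers matched GENCODE M21, which gave names and positions.

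The 12 libraries were fitted in edgeR 4.0.16 (R 4.3.3) with TMM factors, genotype and treatment as terms and the quasi-likelihood test, after filterByExpr (minimum count 10, minimum total 15), with Benjamini-Hochberg adjustment over all 16392 genes at 0.05. A fit of 4 group means gave the response in each genotype and their difference. The scripts were tested on simulated data. Alternatives were DESeq2 1.42.0, RLE size factors, other filters, offsets for GC content and length, a fold threshold of 1.2, a replicate block, all 18 libraries and fits without 1 or 2 libraries.

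Members and gene lists were chosen with earlier results of these data known. Named genes were the 15 largest called rises and falls with a mean of at least 1 CPM, the 8 rises and 8 falls of smallest p called only with 6 a side, up to 4 called members of each list per direction, and Kdm5c; 1 gene of these is not reported here. Other genes named in the text, and the promoter stretches printed, were chosen after their values were seen. Promoter windows came from RefSeq (GRCm38.p6).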

Additional observations from a re-analysis of the deposited data

Results flagged for a closer look

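Among 140 groups of 6 libraries of the named genes, 6 held a single library far from the others. The measure was Dixon's criterion for 6 values at its 95% level, taken on the log of CPM. Chance alone passes that level in about 1 of 20 groups. The values below are given in CPM, on which the criterion was not applied. In Fos, the untreated wild-type library 1 had 4.44 CPM and the other untreated libraries 14.2 to 26.3 CPM. In Dio2, the wild-type novelty library 1 had 74.1 CPM and the other novelty libraries 118 to 153 CPM. In Zfp46, the wild-type novelty library 3 had 42.4 CPM and the others 50.7 to 55.1 CPM. In Micall2, the untreated wild-type library 1 had 1.17 CPM and the others 1.91 to 2.12 CPM. In Zfp867, the wild-type novelty library 1 had 2.33 CPM and the others 3.65 to 4.68 CPM. In Lrrc29, the KO novelty library 2 had 0.676 CPM and the others 1.26 to 1.71 CPM.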

How the results depend on the processing

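The 270 genes called in the pooled comparison became 261 with RLE size factors, 256 with at least 1 CPM in 6 libraries and 240 without the genotype term. The count was 500 with DESeq2, 806 with offsets for GC content and length, 518 with all 18 libraries in the fit and 32 against a fold change of 1.2. Of the 195 higher and 75 lower genes, the GC and length offsets held 195 and 71 and DESeq2 194 and 73. Other settings held fewer: 171 and 63 without the low-count filter, and 133 and 40 with the replicate block. The mean of the wild-type and KO responses held 167 and 44. Without the wild-type novelty library 1 and the KO novelty library 2, 159 and 38 were still called. Genes called only with 6 a side (206) numbered 316 with DESeq2, 398 with the offsets, 26 against the fold of 1.2 and 97 without the wild-type novelty library 1 and the KO novelty library 2. Genes called and separated within both genotypes (229) numbered 32 against that fold and 561 with the offsets. The wild-type response alone (63 genes) gave 214 genes with DESeq2, 252 without the low-count filter, 7 against the fold of 1.2, 451 without the 2 libraries and 580 with the offsets. The KO response (18) gave 68, 101, 1, 63 and 65 in the same order. With the offsets and without both libraries the counts were 654 pooled, 1117 in wild type, 142 in KO and 597 separated. The difference between genotypes (0) gave 8 genes without the low-count filter, 331 without the 2 libraries and 122 with the offsets as well. The cause of these shifts was not tested.

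Leaving out 1 library at a time gave 100 to 314 pooled calls, 90 to 254 genes called only with 6 a side, 98 to 297 separated genes, 4 to 102 in wild type, 1 to 27 in KO and 0 to 0 for the difference. Replicate numbers did not pair the libraries: same-numbered libraries had correlations of their deviations from -0.40 to 0.42, and not every library correlated best with its own number. With the replicate block 182 genes were called in the pooled comparison, 33 in wild type and 6 in KO. No named gene changed direction in an alternative that gave it a value; Slc23a4 was not tested with at least 1 CPM in 6 libraries. At about 1 CPM a gene holds few counts in the shallowest library, so for such genes a small change was not detectable at this depth.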

Other observations

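The called genes named here are on no list and were chosen after their values were seen, so they stand for no group. The glucose transporters Slc2a1, of the blood-brain barrier and glia, and Slc2a3, of neurons, rose by 0.40 ± 0.08 (edgeR adjusted p = 0.02) and 0.22 ± 0.05 (edgeR adjusted p = 0.0276). Pfkfb3, which makes an activator of glycolysis, rose by 0.23 ± 0.05 (edgeR adjusted p = 0.0448), Ak4, a mitochondrial adenylate kinase, by 0.40 ± 0.05 (edgeR adjusted p = 0.00122), and Irs2, an adaptor of the insulin receptor, by 0.58 ± 0.07 (edgeR adjusted p = 0.0005). The prolyl hydroxylase subunits P4ha1 and P4ha2, which modify collagen, rose by 0.53 ± 0.06 (edgeR adjusted p = 0.000847) and 0.42 ± 0.08 (edgeR adjusted p = 0.0117). Slc2a1 ranged from 72.7 to 92.9 CPM untreated and 92.6 to 124 CPM after novelty, and P4ha1 from 51 to 61.1 CPM untreated and 71.9 to 90.3 CPM after novelty.

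Plaur, the receptor of urokinase, ranged from 0.042 to 0.4 CPM untreated and 0.492 to 1.17 CPM after novelty and rose by 1.63 ± 0.34 (edgeR adjusted p = 0.0268). Its means were under the 1 CPM asked of the largest named rises, so this fold change comes from few counts. Plat, the tissue plasminogen activator, rose by 0.27 ± 0.04 (edgeR adjusted p = 0.00662). Nab2, a corepressor of EGR factors, rose by 0.27 ± 0.06 (edgeR adjusted p = 0.039), and the muscarinic receptor gene Chrm4 by 0.45 ± 0.08 (edgeR adjusted p = 0.0094). Among the falls, Rsrp1, an arginine and serine rich protein, had the values 441 to 473 CPM untreated and 311 to 383 CPM after novelty and fell by 0.40 ± 0.05 (edgeR adjusted p = 0.000956). Hnrnpdl, an RNA-binding protein, fell by 0.29 ± 0.07 (edgeR adjusted p = 0.0403). P2ry13, a purinergic receptor of microglia, fell by 0.42 ± 0.08 (edgeR adjusted p = 0.0155), and Clec14a, an endothelial lectin, by 0.60 ± 0.13 (edgeR adjusted p = 0.0347); P2ry13 lies inside Med12l on the opposite strand.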
